A study of Arabidopsis thaliana with 4 samples.

Results

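The quantity described is the difference between 2 responses to a topoisomerase inhibitor in Arabidopsis thaliana. For each probe set of a microarray, the log2 ratio of the signal on the inhibitor 10H-CPT to that on DMSO was taken in as2-1 plants and in Col-0 plants, and the Col-0 ratio was subtracted from the as2-1 ratio. The result is called the departure from additivity below. It is 0 where both genotypes responded by the same factor, above 0 where the ratio was larger in as2-1 and below 0 where it was smaller. Signals under a floor of 46.6, the 40th percentile of all values of the 4 arrays, were set to it. The 12717 of 22746 probe sets (55.9%) with a signal above the floor on all 4 arrays are described here, and 1870 others were above it on only some of the arrays.

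The tissue was shoot apices with leaf primordia, harvested from plants grown for 14 days on Murashige and Skoog agar with 16 h of light and 8 h of dark. The 4 groups were wild type of the accession Col-0 with DMSO, the same wild type with 10H-CPT, the mutant as2-1 with DMSO and as2-1 with 10H-CPT, all in the Col-0 background. The inhibitor was dissolved in DMSO, and its dose is not given in the labels. Each group was measured on 1 array, so no value has a replicate error, no test was made, and a departure carries the errors of all 4 arrays.

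AS2 (asymmetric leaves2) encodes a plant-specific nuclear protein that acts with AS1 to repress genes of leaf polarity and KNOX homeobox genes in the leaf primordium, and mutants such as as2-1 form asymmetric, lobed leaves. DNA topoisomerase I relieves the torsion that transcription and replication put into DNA, and in Arabidopsis its loss disturbs meristems and lateral organs. Camptothecin and derivatives such as 10-hydroxycamptothecin (10H-CPT) hold the enzyme on the nicked DNA. Since AS2 and TOP1 are named together in the title of the study, the comparison addresses whether the inhibitor acts on the same transcripts to the same degree with and without AS2 function.

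The trimmed means of the 4 arrays lay between 198.3 and 198.5 and the medians between 86.0 and 88.3. The probe annotation used here names a single gene for 6845 of the 12717 probe sets (53.8%). It names fewer of those that departed most, with 2 of the 20 largest departures above 0 and 3 of the 20 largest below 0. Probe sets it does not list are given by their IDs. AS1, AS2 and the TOP1 genes had no probe set named in this way, so the mutated gene and the drug target were not followed here. Of the shoot meristem markers, CLV3 was the only one on a named probe set and its signals, at most 15, were under the floor on all 4 arrays. The green leaf markers LHCB4.1 (4100.6 to 4948.1) and RCA (1511.9 to 2754.6) were bright. The root-specific expansin EXPA7 was under the floor on all 4 arrays, and PYK10, a beta-glucosidase abundant in roots and hypocotyls, had signals of 3487.7 to 5603.4. In whole apices, fewer cells of a type and less RNA per cell cannot be told apart.

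Most departures were small. The median departure was -0.02, the quartiles were -0.28 and 0.24, and the SD over probe sets was 0.46 on the log2 scale. A departure of at least 2-fold was found for 427 probe sets (3.36%), of which 268 (2.11%) were above 0 and 159 (1.25%) below 0. At 3-fold the counts were 72 and 34, and at 4-fold 28 and 11. The extremes were asymmetric, with 5.27 for 266142_at at the upper end and -2.86 for 261913_at at the lower. The excess above 0 was largest among dim probe sets. Of the 4239 dimmest by mean signal 118 were above and 46 below, of the next 4239 it was 85 and 49, and of the 4239 brightest 65 and 64. The SD of the departure was 0.49, 0.45 and 0.43 in these classes. The part of dim signals in the excess was not tested.

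**Figure D1:**
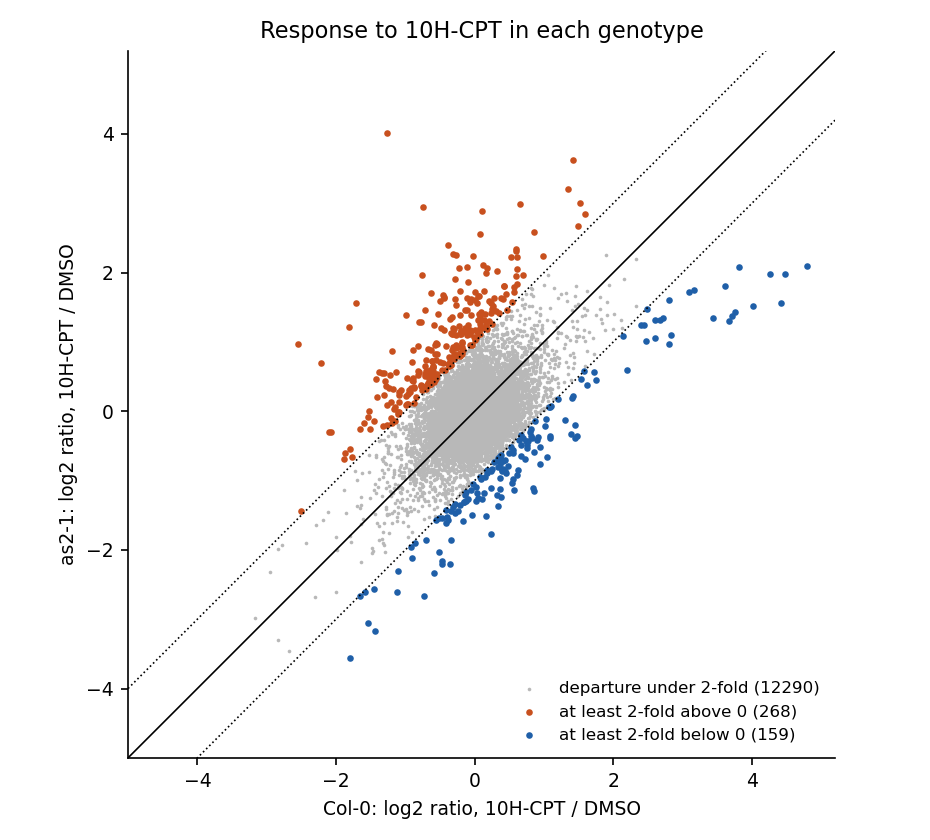
Log2 ratio of 10H-CPT to DMSO in Col-0 (horizontal axis) against that in as2-1 (vertical axis), 1 point per probe set above the floor on all 4 arrays. The solid line marks equal responses and the dotted lines departures of 2-fold: 268 orange points lie above the band, 159 blue points below it, and a separate string of blue points extends to the right where the Col-0 response was largest.

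The departures were not spread evenly over the possible signal patterns, which is in part fixed by selecting on the departure. Each response was classed as at least 2-fold higher on 10H-CPT, at least 2-fold lower, or less than 2-fold. Over all 12717 probe sets, the higher class held 1.42% and the lower class 1.57% in Col-0, and 2.51% and 1.98% in as2-1. Of the 268 departures above 0, 117 had a higher signal on 10H-CPT in as2-1 with less than 2-fold in Col-0 (median log2 responses 1.46 and 0.01). In 43 Col-0 had the lower signal on 10H-CPT while as2-1 stayed within 2-fold (medians -1.30 and 0.06). In 99 each response was under 2-fold, with medians of -0.60 in Col-0 and 0.59 in as2-1. Such responses must be opposed for their difference to reach 2-fold. Only 5 were higher on 10H-CPT in both genotypes, 3 were lower in Col-0 and higher in as2-1, and 1 was lower in both.

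Below 0 the makeup was different. Of the 159 departures, 51 were lower on 10H-CPT in as2-1 with less than 2-fold in Col-0 (medians -1.38 and -0.16), 24 were higher in both genotypes, 23 were higher in Col-0 alone (medians 1.40 and 0.07), 8 were lower in both, and 53 had both responses under 2-fold. None had opposite responses of at least 2-fold each. The 24 that were higher in both had a median log2 response of 3.13 in Col-0 and 1.40 in as2-1. They were also the brightest class, with a median signal of 861, against 136 to 319 in the other classes below 0.

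**Figure D2:**
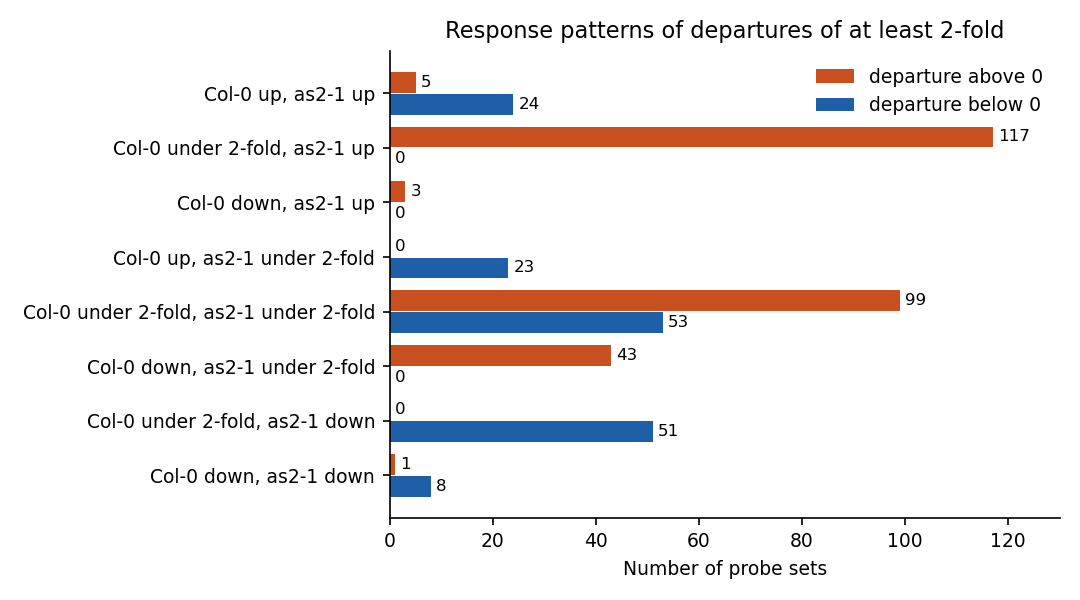
Number of probe sets (horizontal axis) in each combination of responses to 10H-CPT, for departures of at least 2-fold above 0 (orange, 268 in all) and below 0 (blue, 159 in all). Up and down mean at least 2-fold higher and lower on 10H-CPT. The longest orange bar (117) is the class that was higher in as2-1 alone, and the blue bars include 24 probe sets that were higher in both genotypes.

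The as2-1 array on 10H-CPT held the extreme signal in most departures. It was the highest of the 4 in 203 of the 268 above 0 (75.7%), compared with 26.2% of all measured probe sets, and the lowest in 90 of the 159 below 0 (56.6%). A larger as2-1 ratio favours such an order by construction, so the shares describe the pattern and are not a separate finding. The Col-0 array on 10H-CPT was the lowest in 148 of the 268, an order that the selection also favours. In 71 above 0 and 22 below 0, the as2-1 signal on 10H-CPT was at least 2-fold from the other 3 arrays, which lay within 2-fold of each other. The array of Col-0 on 10H-CPT stood alone in this way in 9 and 7, that of as2-1 on DMSO in 7 and 5, and that of Col-0 on DMSO in 2 and 5. Lowest arrays and arrays standing alone were not counted over all measured probe sets, so how far these counts differ from the rest is not known. With 1 array per group, a property of the single as2-1 array on 10H-CPT and an effect of that combination cannot be told apart.

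The same departures can be read as genotype differences that depended on the medium. Over all measured probe sets as2-1 was at least 2-fold higher than Col-0 in 0.912% and lower in 0.873% on DMSO, and higher in 2.19% and lower in 1.42% on 10H-CPT. Of the departures above 0, the genotypes were at least 2-fold apart only on 10H-CPT in 138, only on DMSO in 24, on both media in 14 and on neither in 92. Of those below 0, they were apart only on 10H-CPT in 50, only on DMSO in 46, on both in 4 and on neither in 59. Among the 427, a genotype difference was thus seen on 10H-CPT alone in 188 and on DMSO alone in 70.

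One pattern below 0 was convergence of the genotypes on 10H-CPT. In 33 of the 159 probe sets, the signal was at least 2-fold higher on 10H-CPT in Col-0, as2-1 was already higher than Col-0 on DMSO by 0.5 or more on the log2 scale, and the genotypes lay within 1.5-fold of each other on 10H-CPT. These limits were chosen after the values were seen, so the values that follow describe the group and support nothing. The median response was 6.56-fold in Col-0 and 2.48-fold in as2-1. On DMSO as2-1 was higher by a median of 3.03-fold (1.42-fold to 7.77-fold), whereas on 10H-CPT the median ratio of as2-1 to Col-0 was 1.07 (0.683 to 1.49).

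**Figure D3:**
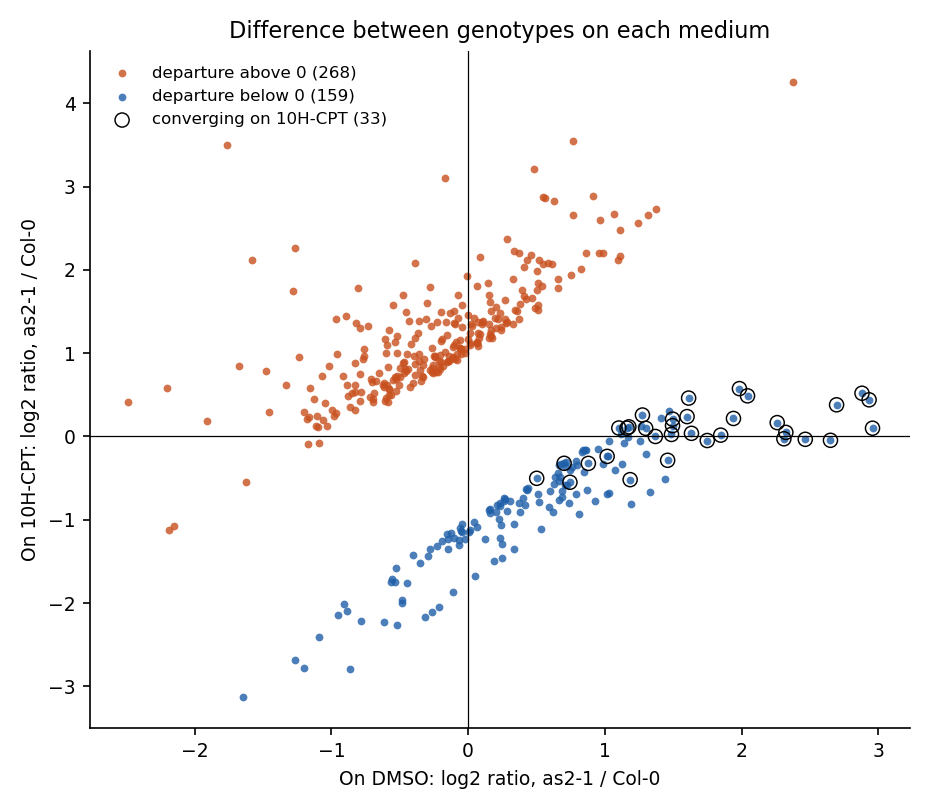
Log2 ratio of as2-1 to Col-0 on DMSO (horizontal axis) against that on 10H-CPT (vertical axis) for the 427 departures of at least 2-fold, orange above 0 and blue below 0. The 33 circled probe sets lie along the line of equal signals on 10H-CPT while as2-1 was 1.42-fold to 7.77-fold higher on DMSO.

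Genes of aliphatic glucosinolate synthesis made up 4 of the 8 convergent probe sets with a gene name. Glucosinolates are sulfur-containing defence compounds of the cabbage family, and the aliphatic ones are built from methionine by chain elongation, formation of the core structure and side-chain changes. The list for this pathway held 22 genes, of which 5 had a named probe set and 4 were measured, and all 4 departed by at least 2-fold below 0 with a median of -1.41. Over all measured probe sets the median was -0.02 and 1.25% were at least 2-fold below 0. The list was chosen with earlier results of these data known, and the limits of the convergent group after the values were seen. These counts therefore describe the members and are no independent support for the pathway.

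BCAT4, the aminotransferase that starts methionine chain elongation, had a signal of 401.0 in untreated Col-0 and 6468.2 in treated Col-0, against 2212.0 in untreated and 6324.0 in treated as2-1. The 2 arrays on 10H-CPT were both high and 1.02-fold apart, and the DMSO arrays were 5.52-fold apart. The response was 16.1-fold in Col-0 and 2.86-fold in as2-1, a departure of -2.5, the largest below 0 among named genes. Equal ratios in the 2 genotypes would have put as2-1 on 10H-CPT at a signal of 35744, while the highest signal of any probe set on the 4 arrays was 13393. The part of the upper end of the scale in the departure was not tested. On the linear scale the departure was also below 0, at -1963 signal units.

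GSTU20, a glutathione transferase placed in the same pathway, had signals of 1017.1, 5653.4, 2847.5 and 5755.8 in the same order of arrays, that is Col-0 without and with the inhibitor, then as2-1 without and with it. This order is kept for all sets of 4 signals that follow. The arrays on 10H-CPT were again level, and the departure was -1.46, from responses of 5.56-fold and 2.02-fold. Equal ratios would have put as2-1 on 10H-CPT at 15856, also above the highest signal of 13393 on the 4 arrays. The part of the upper end of the scale was not tested here either. For UGT74C1 and UGT74B1, described next, equal ratios would have given 4344 and 5292, under that highest signal. AT2G31790 (UGT74C1), a glucosyltransferase of the core structure, had signals of 235.3, 1540.7, 662.2 and 1687.3, with a departure of -1.36. Its responses were 6.56-fold in Col-0 and 2.55-fold in as2-1. UGT74B1, the other glucosyltransferase of this step, had signals of 824.3, 2464.2, 1767.0 and 2647.0 and a departure of -1.0. It was just past the 2-fold limit and was short of it in the values as deposited (-0.997), with log2 of signal plus 50 (-0.957), after quantile normalization (-0.902) and after centring on a running median (-0.860), so that 3 of the 4 genes were past 2-fold under those settings. In these 3 genes, too, the lowest signal was that of Col-0 on DMSO and the next lowest that of as2-1 on DMSO, with the genotypes 1.02-fold to 1.09-fold apart on 10H-CPT. All 4 genes belong to the convergent group. Its limits require the lowest signal to be that of Col-0 on DMSO and the genotypes to lie within 1.5-fold on 10H-CPT. These traits are therefore no separate finding for the pathway.

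The other 4 named convergent genes are given by their loci, and their order on DMSO follows from how the group was chosen. AT3G56360 had signals of 211.3, 1509.3, 580.1 and 1239.1 and a departure of -1.74. AT1G21440, at 553.0, 3107.5, 1336.2 and 3719.1, departed by -1.02. AT3G15650, at 54.0, 166.6, 109.1 and 141.3, departed by -1.26, and AT2G01610, at 76.2, 220.3, 170.3 and 236.3, by -1.06. For AT3G15650 and AT2G01610 the Col-0 signal on DMSO was near the floor of 46.6, where ratios of these intensities are least precise. The lower end of the whole range, 261913_at, is a convergent probe set as well, with signals of 48.4, 1031.4, 375.4 and 1105.9, and its Col-0 signal on DMSO was also barely above the floor.

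Genes of the flavonoid and anthocyanin pathway lay on the opposite side. Anthocyanins are pigments of the vacuole made from flavonoid precursors and stabilised by sugar transfer. Of the 24 genes on this list 5 had a named probe set and 4 were measured. All 4 had a departure above 0, with a median of 1.16 against -0.02 over all measured probe sets, and 2 were past 2-fold, compared with 2.11% of all measured probe sets. This list, too, was chosen with earlier results of these data known, so the comparison only describes its members. DFR, the dihydroflavonol reductase that commits precursors to anthocyanins, had signals of 61.6, 176.4, 87.2 and 697.9. The as2-1 array on 10H-CPT was the highest by far, the response was 2.87-fold in Col-0 and 7.99-fold in as2-1, and the departure was 1.48. AT4G14090 (UGT75C1), an anthocyanin glucosyltransferase, had signals of 63.7, 96.4, 66.4 and 338.0, with the genotypes level on DMSO and a departure of 1.75. The flavonoid glucosyltransferase UGT78D2, at 121.8, 185.9, 162.0 and 444.5, and the flavonol rhamnosyltransferase UGT78D1, at 457.0, 549.5, 552.4 and 822.2, also had their highest signal in as2-1 on 10H-CPT but departed by 0.84 and 0.30, short of 2-fold. The fifth gene, UF3GT, another anthocyanin glycosyltransferase, had 47.0, 68.8, 38.6 and 264.2 and was left out because as2-1 on DMSO was under the floor.

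**Figure D4:**
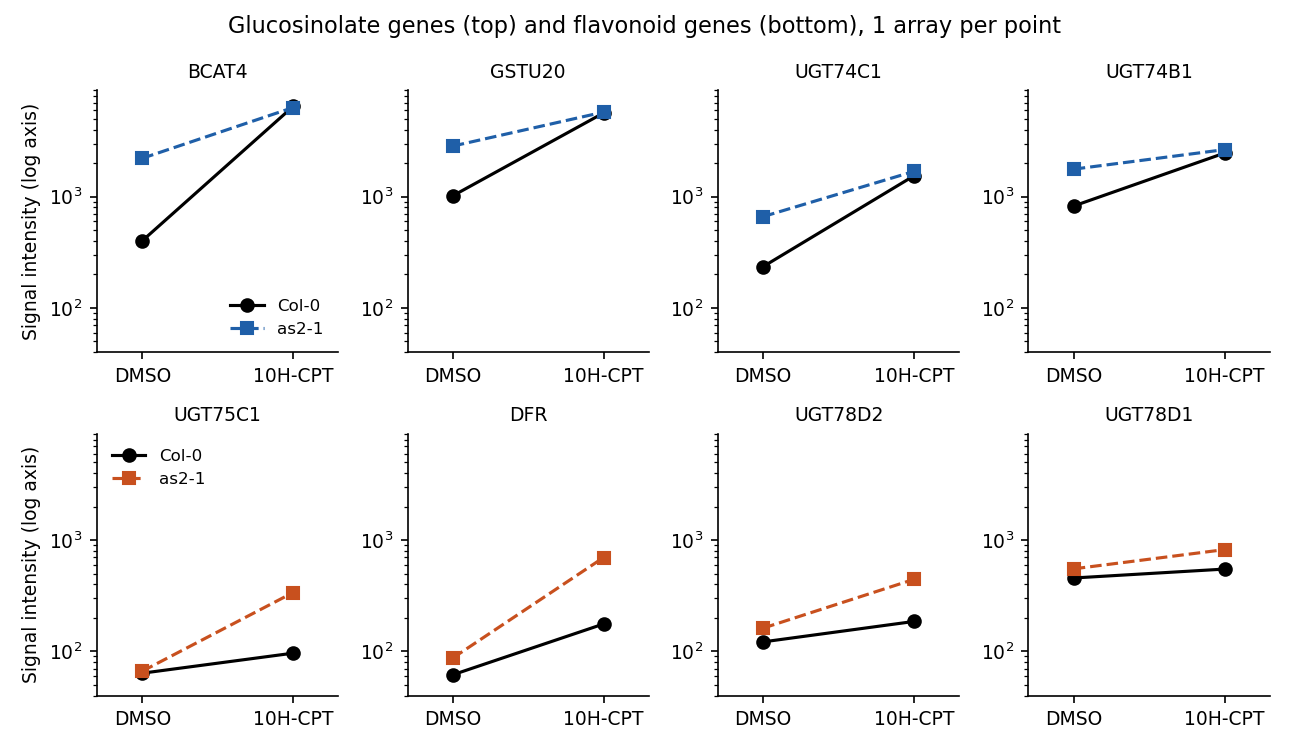
Signal intensity (vertical axis, log scale) on DMSO and 10H-CPT for the 4 measured glucosinolate genes (top) and the 4 measured flavonoid genes (bottom), 1 array per point, Col-0 as circles and solid lines, as2-1 as squares and dashed lines. In the top row the lines start apart on DMSO and meet on 10H-CPT, while in the bottom row they start close together and separate on 10H-CPT. All 4 top genes belong to the convergent group, whose limits require lines apart on DMSO and close on 10H-CPT.

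Of the 29 gene lists, 18 had a measured member and 6 a departure past 2-fold, and the members of each were few. In the auxin response list, GH3.3, an enzyme that conjugates the hormone indole-3-acetic acid to amino acids, had signals of 537.3, 421.4, 430.5 and 93.7. The as2-1 array on 10H-CPT was alone at the low end, 4.50-fold below Col-0 on the same medium, and the departure was -1.85. GH3.5, which makes the same kind of conjugate, had signals of 1112.6, 801.3, 1113.9 and 541.5 and a departure of -0.57. These were the only 2 of 19 auxin genes measured.

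Among cold and abscisic acid genes, the dehydrin COR47 had signals of 403.2, 425.1, 634.8 and 1460.4 and a departure of 1.12. Its Col-0 signals were level and its as2-1 signal was 2.30-fold higher on 10H-CPT. COR15B (0.26) and XERO2 (-0.11) were within 2-fold of additivity. MCCA, a subunit of a carboxylase of leucine breakdown that is induced in the dark, had signals of 334.4, 209.4, 264.3 and 346.1, with a departure of 1.06 made of a lower signal on 10H-CPT in Col-0 and a higher one in as2-1. The clock gene GI (GIGANTEA), which links the circadian clock to flowering, had signals of 548.4, 173.3, 413.3 and 64.9. It was lower on 10H-CPT in both genotypes, by 3.16-fold in Col-0 and 6.38-fold in as2-1, and the departure was -1.01. On the linear scale its departure was 26.0 signal units and so above 0, and with the floor at the 60th percentile it was 0.07, a bound, because the as2-1 signal on 10H-CPT was then set to the floor.

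The lists closest to the study's title held no departure of 2-fold among the few members that were measured. In the list of leaf polarity and KNOX genes 3 of 17 were measured, the YABBY genes YAB5 (0.02) and YAB3 (0.42) and the adaxial HD-ZIP gene PHV (-0.51). The ratio of as2-1 to Col-0 for YAB5 was 1.80 on DMSO and 1.82 on 10H-CPT, so the 2 factors combined almost exactly by multiplication. For the DNA damage response 2 of 23 were measured, the DNA ligase gene LIG4 (-0.32) and AT5G11460 (0.23). The replication helicase gene MCM7 departed by -0.49, with signals of 222.6, 373.0, 204.1 and 243.9. The mitotic kinase genes AUR1, AUR2 and AUR3 departed by -0.37, -0.47 and -0.20. AUR2 had signals of 107.8, 210.6, 121.0 and 171.2, the largest difference between media of the 3. Each of these genes is 1 probe set, and most members of these lists were not followed. AGO7, described below and picked after its values were seen, was not on the leaf polarity list and departed by -1.32.

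Some genes that differed with both factors were close to additive. EXPA15, an expansin gene of cell wall loosening, had signals of 257.6, 592.8, 553.9 and 1219.7 and a departure of -0.07. Both the mutation and the inhibitor went with a signal more than 2-fold higher, and the signal with both was near the product of the separate ratios. EXPA4 (356.5, 625.9, 609.2 and 1286.4) departed by 0.26 and EXPB3 (112.9, 337.4, 303.7 and 685.6) by -0.41, with the same order of a low Col-0 array on DMSO and a high as2-1 array on 10H-CPT. The xyloglucan transferase XTH19 departed by -0.42, and 4 of the 23 cell wall genes were measured. In the starch list APL3, a subunit of the enzyme that makes ADP-glucose, had signals of 55.6, 57.4, 170.5 and 333.1 and a departure of 0.92, short of 2-fold, and DPE1 departed by -0.05. APL3 was higher in as2-1 on both media, and its Col-0 signals were level.

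The other measured list members were each within 2-fold of additivity. These were SAG101 (0.87) of the salicylic acid list, PYE (-0.53) of the iron list, UPOX (0.39) of the oxidative and xenobiotic list, RH10 (-0.28) of the nucleolar list, and IVD (0.37) and MCCB (0.12), which act in leucine breakdown beside MCCA. The markers RCA, LHCB4.1 and PYK10 departed by 0.51, 0.01 and 0.21. No measured member was found for 11 lists, which were those of AS1 and AS2, TOP1, indole glucosinolates and camalexin, jasmonate, rapid stress transcription factors, phosphate starvation, type-A response regulators, heat shock, senescence, the shoot meristem and the flower.

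**Figure D5:**
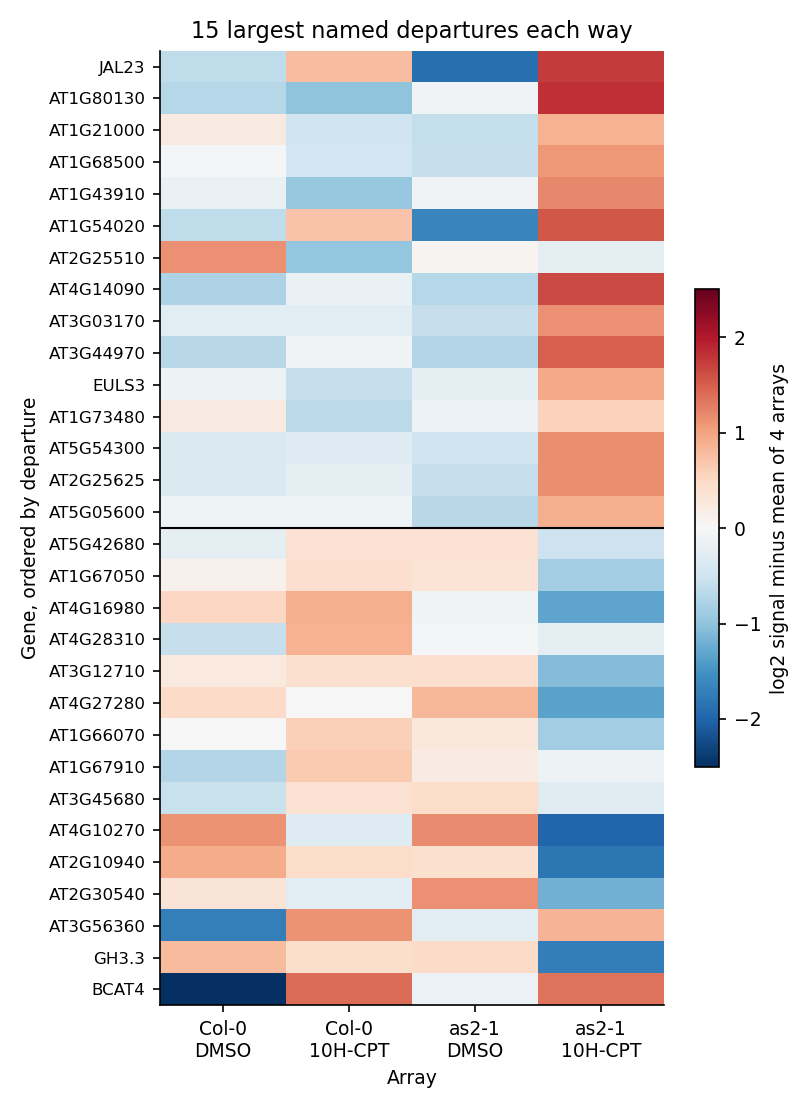
Log2 signal of each array minus the mean of the 4 arrays, for the 15 named genes with the largest departure above 0 (upper block) and below 0 (lower block), in order of departure. In the upper block the as2-1 array on 10H-CPT is the darkest red in 14 rows and AT2G25510 is instead highest in Col-0 on DMSO, and in the lower block that array is blue except in AT3G56360 and BCAT4.

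Among named genes above 0 the most frequent picture was a signal that was higher in as2-1 on 10H-CPT than on each of the other 3 arrays. The largest departure, 2.19, belonged to JAL23, a jacalin-type lectin, with signals of 327.6, 877.5, 138.8 and 1706.0. It was higher on 10H-CPT in both genotypes, by 2.68-fold in Col-0 and 12.3-fold in as2-1, and the lowest signal was that of as2-1 on DMSO. AT1G54020 had the same order, at 241.9, 615.0, 119.3 and 1102.6, with a departure of 1.86. In both genes as2-1 was the lower genotype on DMSO, by 2.36-fold and 2.02-fold, and the higher one on 10H-CPT, by 1.94-fold and 1.79-fold.

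A different order was seen in genes whose Col-0 signals were within 2-fold on the 2 media. AT1G80130 had signals of 68.0, 55.9, 105.2 and 396.0 and a departure of 2.19. AT3G44970, at 177.3, 269.3, 171.8 and 805.7, departed by 1.62, and AT5G54300, at 93.0, 96.2, 84.7 and 269.0, by 1.62. In these genes the as2-1 array on 10H-CPT was the only high one. AT3G03170, AT5G05600 and AT2G25625 had it too, with Col-0 responses of at most 0.13 and as2-1 responses of 1.60 to 1.74 on the log2 scale. In AT1G21000, AT1G68500, AT1G43910 and EULS3, a lectin gene, the Col-0 signal was lower on 10H-CPT by 1.36-fold to 1.72-fold, so that an opposite trend in Col-0 added to the departure. AT1G43910, for instance, had 256.0, 148.9, 271.7 and 666.0, level genotypes on DMSO and a 4.47-fold difference on 10H-CPT. The lowest signals of AT3G03170 (50.8), AT5G05600 (54.6), AT1G68500 (50.4) and EULS3 (61.7) were near the floor. With the floor at the 60th percentile, their departures fell to 0.29, 0.28, 0.23 and 0.36, in this order. Those of AT1G80130, AT5G54300 and AT2G25625 fell to 1.53, 0.97 and 0.81, and those of AT3G44970, AT1G21000 and AT1G43910 did not change. With log2 of signal plus 50, all these departures stayed past 2-fold.

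The departures above 0 that came from Col-0 were of another kind. AT2G25510 had signals of 7195.1, 1679.9, 3426.3 and 2787.4. The Col-0 signal was 4.28-fold lower on 10H-CPT, the as2-1 signal was lower by 1.23-fold, and as2-1 was below Col-0 on DMSO and above it on 10H-CPT. ECS1 had signals of 4764.6, 1512.5, 2101.3 and 1756.8, a response of -1.65 in Col-0 and -0.26 in as2-1, and a departure of 1.39. In ECS1 the 3 arrays other than Col-0 on DMSO lay between 1512.5 and 2101.3, so that its pattern was a single high array. AT4G28703, at 151.3, 50.1, 96.1 and 85.4, also had its highest signal on that array, while in AT5G43150, at 314.0, 138.5, 470.4 and 588.9, the low array was Col-0 on 10H-CPT.

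Below 0, the named genes outside the glucosinolate pathway were mostly those with a low signal on the as2-1 array on 10H-CPT. AT2G10940 had signals of 1666.4, 1202.6, 1162.0 and 251.6, and AT4G27280 had 368.3, 266.4, 465.1 and 104.6. Their departures were -1.74 and -1.69, and in both the other 3 arrays lay within 2-fold. AT3G12710 (369.2, 414.4, 420.5 and 147.7) and AT1G67050 (270.3, 338.3, 320.1 and 138.4) had the same single low array. AT2G30540, at 485.2, 321.8, 849.3 and 168.9, differed in that as2-1 was the higher genotype on DMSO and the lower one on 10H-CPT, and its departure was -1.74. A reversed order of the genotypes was also seen in AT3G45680, at 62.9, 121.2, 128.2 and 75.5, where both responses were under 2-fold and of opposite sign.

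In a smaller group the response was in the same direction in both genotypes and larger in as2-1. ARL (ARGOS-LIKE), which promotes organ growth through cell expansion, had signals of 507.3, 174.2, 923.9 and 111.6. The inhibitor went with a signal lower by 2.91-fold in Col-0 and by 8.29-fold in as2-1, with a departure of -1.51, and as2-1 was the higher genotype only on DMSO. AT4G10270, at 774.0, 284.6, 802.1 and 89.1, departed by -1.73, and its genotypes were level on DMSO. AT4G27450, at 2677.4, 977.3, 2492.3 and 421.3, departed by -1.11. In all 3 genes as2-1 on 10H-CPT was the lowest array and Col-0 on 10H-CPT the next.

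Some genes below 0 were higher on 10H-CPT in Col-0 alone and ended above as2-1 there. AT1G67910 had signals of 162.4, 423.6, 309.1 and 247.6 and AT4G28310 had 136.0, 369.2, 196.3 and 170.9, with departures of -1.71 and -1.64. AT3G09440, at 684.2, 1447.2, 488.3 and 372.9, was higher by 2.12-fold on 10H-CPT in Col-0 and lower by 1.31-fold in as2-1. Hsp70-2, a cytosolic heat shock protein 70 gene chosen after its values were seen, had signals of 137.9, 456.4, 178.1 and 263.2 and a departure of -1.17. In these 4 genes Col-0 on 10H-CPT was the highest array.

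A gene symbol was attached to 15 of the departures above 0 and 17 of those below 0. Those described in this paragraph were picked from them after their values were seen. HIS1-3, a drought-induced linker histone variant, had signals of 145.9, 135.1, 182.5 and 501.7 and a departure of 1.57. EXLA2, an expansin-like gene, departed by 1.44, and AFR, an F-box gene of far-red light signalling, by 1.14, with the as2-1 array on 10H-CPT highest in each. MSRB9, a methionine sulfoxide reductase gene, had signals of 627.8, 294.0, 140.8 and 140.1, so its as2-1 signals were low and level and its departure of 1.08 came from Col-0. AGO7, the ARGONAUTE of the trans-acting small RNA route that restrains ETTIN and ARF4 in the leaf, had signals of 69.0, 88.4, 136.8 and 70.3 and a departure of -1.32. Its as2-1 signal on DMSO was the single high one, 1.99-fold above Col-0 on the same medium, and all its signals were dim. CSLC04, a glucan synthase of xyloglucan, had signals of 421.0, 257.4, 439.4 and 121.3, and CCS, the copper chaperone of superoxide dismutase, had 77.8, 85.0, 111.5 and 49.2, with departures of -1.15 and -1.31. Over the whole set with a symbol, the as2-1 array on 10H-CPT was the highest in 11 of 15 above 0 and the lowest in 10 of 17 below 0. Over all departures it was the highest in 203 of 268 (75.7%) and the lowest in 90 of 159 (56.6%). The selection favours this order, so the counts are no finding about genes with a symbol.

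Transcripts of the plastid genome showed a small shift shared by many probe sets. They numbered 63, with a median departure of -0.30, and 49 of them (77.8%) were below 0. That compares with 52.5% of all measured probe sets and 57.0% of the 4239 brightest. In Col-0 the median response to 10H-CPT was 0.16 and in as2-1 it was -0.10, against -0.005 and -0.025 over all measured probe sets. On DMSO the genotypes differed by a median of -0.04, and on 10H-CPT by -0.24, against 0.006 and -0.013 over all measured probe sets. On 10H-CPT as2-1 was lower in 59 of 63, and the share lower over all measured probe sets was not counted. Only atpH, for a subunit of the plastid ATP synthase, passed 2-fold, with signals of 2150.5, 1179.4, 2483.9 and 665.9 and a departure of -1.04. The shift depended on scaling: it was -0.16 after quantile normalization and -0.10 when departures were centred on a running median over signal, with 40 of 63 below 0 in each, and these comparisons were added after the data were seen. The transcripts come from few polycistronic units and 1 genome, so the 63 values are not independent.

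Where a gene had several probe sets, these tell how well a departure repeats within the same 4 RNA samples. Of 28 genes with more than 1 measured probe set, 3 had a departure past 2-fold in 1 of them. The other probe set had the same sign but was smaller in each. AT1G23440 departed by 1.23 and 0.01, AT2G03390 by 1.05 and 0.31, and AT2G35450 by 1.35 and 0.52. All were above 0, and none of the 3 passed 2-fold with both of its probe sets. At the limits of the selection, AT1G06640 (1842.2, 1001.6, 1575.5 and 1718.4) was just past 2-fold above 0 at 2.002-fold and 251218_at just short of it at 1.9998-fold, while below 0 UGT74B1 was just past it and 260462_at just short of it. The probe set closest above the floor, SD1-29, had signals of 47.3, 54.3, 46.6 and 58.5, and the closest under it, 246568_at, had 49.7, 46.6, 70.5 and 52.2.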

How the data were processed

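Biotinylated cRNA was made from total RNA of shoot apices and hybridised to Affymetrix arrays, as the labels' protocols state, with 1 array for each of the 4 groups. The deposited values are linear signal intensities made by the authors with MAS5, per the submitters' processing notes. Its version, the array design, scaling target and detection calls were not stated in those notes or the labels. Mismatch probes enter a MAS5 intensity, so ratios of dim probe sets are imprecise.

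Each array was rescaled to a common trimmed mean, leaving out 2% at each end, by factors of 0.9994 to 1.0006. Intensities under the 40th percentile of all values were set to it before log2 was taken, and probe sets above it on all 4 arrays were kept. Signals are printed as deposited, and ratios come from the rescaled values. A departure counted from 2-fold, with no test. The labels do not say whether separate cultures were sampled, and precision is limited by the number of arrays.

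Probe sets were named from the platform annotation supplied for this work, which lists 14016 of them, 503 with several genes. Of the 13513 with 1 gene, 13436 were matched by gene identifier to symbols of the reference table (assembly TAIR10.1). Of 444 genes on 29 lists, 68 had a named probe set and 39 were measured. Genes were named by rule among probe sets of 1 gene, without the suffixes _s_at and _x_at, which mark cross-matching probes. The rule took the 15 largest departures each way, the 4 largest each way in each class of responses, and up to 4 past 2-fold per list. Members and lists were chosen with earlier results of these data known. No promoter search was run here. Python 3.11.15, numpy 2.4.6, pandas 2.3.3 and matplotlib 3.10.9 were used. The alternatives were other scalings, floors, filters, thresholds, centrings and the linear scale.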

Additional observations from a re-analysis of the deposited data

Results flagged for a closer look

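In 5 probe sets the effect under one condition was opposite to that under the other, each by at least 2-fold, and none of these differences was tested. The annotation used here names no single gene for any of them. For 266142_at the signals were 270.5 and 113.0 in Col-0 without and with 10H-CPT, and 79.4 and 1284.5 in as2-1, an order kept below. Its log2 response was -1.26 in Col-0 and 4.01 in as2-1, and as2-1 differed from Col-0 by -1.77 on DMSO and 3.51 on 10H-CPT, a departure of 5.27. Probe set 262226_at, at 301.5, 85.4, 123.7 and 286.6, departed by 3.03, with responses of -1.82 and 1.21 and genotype differences of -1.28 and 1.75. Probe set 253872_at, at 175.9, 53.7, 156.3 and 463.7, departed by 3.28, with responses of -1.71 in Col-0 and 1.57 in as2-1. For 249732_at, at 530.0, 315.2, 177.1 and 1366.1, the genotypes differed by -1.58 on DMSO and 2.11 on 10H-CPT, a departure of 3.69. For 254232_at, at 335.8, 57.1, 139.7 and 273.8, they differed by -1.26 and 2.26, a departure of 3.52. In all 5 the departure was above 0, and the Col-0 signals on 10H-CPT of 253872_at and 254232_at were near the floor.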

How the results depend on the processing

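The main counts were 268 departures above 0, 159 below 0, 70 with the genotypes 2-fold apart on DMSO alone and 188 on 10H-CPT alone. They moved with the treatment of dim signals, with the filter and with the threshold. In the same order they were 636, 499, 233 and 399 with the 20th percentile as floor, 105, 74, 34 and 78 with the 60th, and 153, 77, 36 and 107 with log2 of signal plus 50. They were 996, 947, 303 and 806 at 1.5-fold and 72, 34, 17 and 38 at 3-fold. With at least 1 array above the floor in place of all 4, which kept 14587 probe sets, they were 378, 188, 105 and 261. The share above 0 was 62.8%, and 51.3% at 1.5-fold. Of the 427 departures, 426 remained past 2-fold with the same sign in the values as deposited, which the scale factors of 0.9994 to 1.0006 had hardly changed. The number was 411 after quantile normalization and 413 after centring on a running median. It was 230 with log2 of signal plus 50 and 247 at the floor of the 60th percentile. At that floor, 179 of the 427 were still above it on all 4 arrays. All 179 remained, an outcome fixed in advance because none of their signals was set to it. Of the 427, 51 had the other sign or a departure of 0 at that floor. Of the 49 genes named by rule, 1 turned its sign: GI, to 0.070 at the floor of the 60th percentile and to 26.0 signal units on the linear scale. Departures of 19 others at that floor, and of 11 with log2 of signal plus 50, moved by more than 0.5 on the log2 scale, and none did under the other settings. The floor at the 20th percentile could move none of them, since all their signals lay above it. No paired analysis was possible because each group has 1 array, and no array could be left out for the same reason.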
